A study of Mus musculus with 24 samples.

Results

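Transcripts of 9 genes of the thyroid follicle were followed through 24 RNA libraries made from cells sorted out of mouse trachea. The genes, Tg, Iyd, Pax8, Slc5a5, Tshr, Duox2, Duoxa2, Dio1 and Slc26a7, were chosen by name, with their levels in these libraries already known, and are 9 of the 35855 genes in the tables. All 9 had counts in every library of the group labelled DIFFERENTIATED EPCS, called differentiated here. Each library came from 1000 sorted cells labelled as airway epithelium, from wild-type female mice that had received no treatment, of the strain C57BL/6 by the series title. The labels give 3 groups of 8 libraries, BCAM HI, BCAM LO and DIFFERENTIATED EPCS, each with libraries 1 to 5 in batch 1 and libraries 6 to 8 in batch 2. BCAM is a laminin-binding surface protein, and the title of the series calls the sorted BCAM fractions basal cell subsets; basal cells renew the airway lining. The age of the mice, the markers that defined the differentiated gate, what a batch stands for, and the number of animals behind a library are not stated in the labels. The p-values therefore measure the spread between these libraries, which may be technical.

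A thyroid follicle is a closed ball of epithelial cells around a store of thyroglobulin, the protein encoded by Tg, on which thyroid hormone is built. The sodium-iodide symporter Slc5a5 brings iodide into the cell, and dual oxidases such as Duox2 with their maturation factors such as Duoxa2 supply the hydrogen peroxide needed to bind iodide to thyroglobulin. Iyd recovers iodide from unused iodotyrosines, Dio1 removes iodine from thyroid hormone, Tshr is the receptor of thyroid-stimulating hormone, and the transcription factor Pax8 acts with Nkx2-1 in keeping follicular cells differentiated. The gland lies against the trachea, and follicular cells are not a cell type of the airway epithelium.

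The RefSeq promoter table (build GRCm38.p6) held 6 of the 9 genes, Pax8, Duox2, Duoxa2, Dio1, Slc5a5 and Iyd. The 250 bases before the RefSeq start of 3 of them are printed because they hold a match to 1 of the 2 motifs searched. RefSeq starts can differ from those of GENCODE M21, whose coordinates are used for the genes below. The M21 starts of Duox2 (122298449) and Iyd (3540240) lie inside the printed windows. Those windows thus overlap the M21 genes, whereas the window of Duoxa2 ends just before its M21 start (122298900). The motifs were TATAAA, the TATA box, and CTCAAG, a core sequence bound by Nkx2-1, on both strands, and the 2 do not overlap. Each sequence reads 5′ to 3′ on its gene's strand, from chr10:3540024-3540273 on the plus strand for Iyd, chr2:122298650-122298899 on the plus strand for Duoxa2 and chr2:122298228-122298477 on the minus strand for Duox2, and capitals mark the match.
Iyd: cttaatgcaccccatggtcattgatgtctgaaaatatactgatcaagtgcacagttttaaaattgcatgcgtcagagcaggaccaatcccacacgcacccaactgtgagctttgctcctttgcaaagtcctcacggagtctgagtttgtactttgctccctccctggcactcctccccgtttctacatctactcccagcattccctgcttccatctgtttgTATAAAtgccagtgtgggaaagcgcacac
Duoxa2: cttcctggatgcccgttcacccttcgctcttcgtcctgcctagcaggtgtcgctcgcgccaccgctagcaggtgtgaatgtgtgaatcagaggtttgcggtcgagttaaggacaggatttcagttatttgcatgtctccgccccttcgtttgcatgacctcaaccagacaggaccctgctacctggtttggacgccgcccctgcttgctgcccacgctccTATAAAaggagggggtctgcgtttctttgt
Duox2: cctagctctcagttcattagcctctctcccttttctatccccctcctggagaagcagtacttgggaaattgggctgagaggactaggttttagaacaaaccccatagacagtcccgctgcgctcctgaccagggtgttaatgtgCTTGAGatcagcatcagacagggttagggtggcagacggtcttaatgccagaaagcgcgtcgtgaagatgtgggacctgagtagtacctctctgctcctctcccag
The TATAAA match began at position -29 from the RefSeq start in Iyd and at -30 in Duoxa2. Of 32851 promoter windows of this length, 12.4% held that motif. The match in Duox2 is CTTGAG, the reverse complement of CTCAAG, at -106, and 13.3% of windows held the motif. Duox2 and Duoxa2 lie head to head on chromosome 2, and their annotated starts are 451 bases apart in GENCODE M21. That distance is not the one between their RefSeq starts. A match describes the letters in the window and is not a measured binding site.

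The libraries held 1824619 to 4440072 estimated counts, and the differentiated libraries were the least variable in depth, at 2249001 to 2575975. Levels below are in CPM, the count of a gene per 1000000 counts of a library total scaled by TMM, a factor that balances the bulk of genes between libraries. Summed over Epcam, Cdh1, Krt8 and Krt18, epithelial markers stood at 1333 to 1766 CPM in BCAM HI, 1822 to 2351 in BCAM LO and 1755 to 3590 in the differentiated libraries. Secretory markers differed between the differentiated batches. Summed over 5 airway secretory markers (Scgb1a1, Scgb3a1, Scgb3a2, Cyp2f2 and Bpifb1), the level was 114600 to 191900 CPM in batch 1 and 5627 to 41780 CPM in batch 2. In these bulk samples, more cells of a type and more RNA per cell cannot be told apart.

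Tg (GRCm38 chromosome 15, 66670753 to 66850721, plus strand) was the most abundant of the 9. In the 5 differentiated libraries of batch 1 it stood at 14835, 13310, 12939, 24406 and 23690 CPM. In the 3 libraries of batch 2 it stood at 79239, 112408 and 46826 CPM, so every batch 2 library lay above every batch 1 library. Tg made up 0.943% to 1.96% of all counts in the batch 1 libraries and 4.44% to 10.52% in batch 2, and it was the most abundant gene of all in differentiated library 8 and ranked between 2 and 9 in the other 7.

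Tg had counts in all 16 BCAM libraries as well, at far lower levels. BCAM HI libraries 1 to 5 had 4.96, 10.5, 1.47, 9.11 and 36.5 CPM, and libraries 6 to 8 had 416, 1237 and 78.0 CPM. BCAM LO libraries 1 to 5 had 3.54, 1.18, 2.29, 5.61 and 1.33 CPM, and libraries 6 to 8 had 221, 174 and 3.03 CPM. The batch 2 libraries were thus all higher than batch 1 in BCAM HI, which held for 1 of the 9 genes (Tg) and for 9.82% of genes tested, whereas in BCAM LO library 8 lay among those of batch 1. The means were 40957 ± 36663 CPM in differentiated, 224 ± 432 in BCAM HI and 51.5 ± 91.0 in BCAM LO (SD, n = 8 each).

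**Figure D1:**
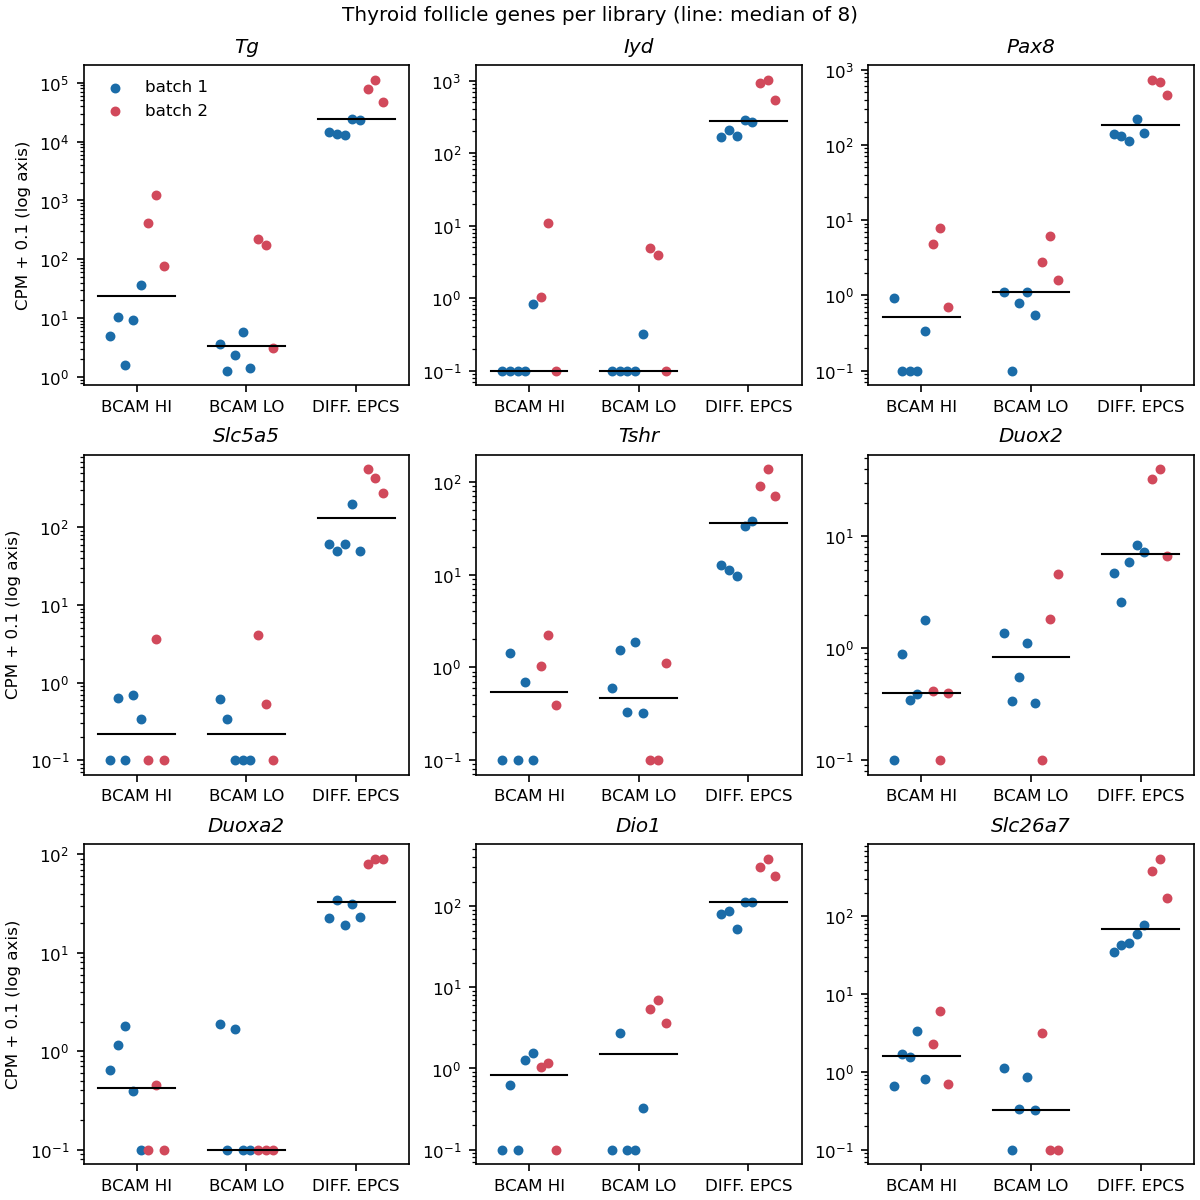
Level of each of the 9 thyroid follicle genes in each library, as CPM plus 0.1 on a logarithmic axis, so that a library with no count sits at 0.1. Points are libraries (blue batch 1, red batch 2), lines are group medians, and in 8 of the 9 panels all 8 differentiated libraries lie above all 16 BCAM libraries, with Duox2 the exception.

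Among the iodide and anion transporters, Slc5a5 (chromosome 8, 70882889 to 70892757, minus strand) stood at 61.05, 49.5, 61.7, 198.9 and 49.7 CPM in differentiated libraries 1 to 5 and at 561, 431 and 281 CPM in libraries 6 to 8. Its counts were 0 in 4 of the 8 BCAM HI and 4 of the 8 BCAM LO libraries, and its highest BCAM values were 3.97 CPM in BCAM LO library 6 and 3.54 CPM in BCAM HI library 7. Slc26a7 (chromosome 4, 14502430 to 14621805, minus strand), an anion transporter of the follicular cell that carries iodide, stood at 34.6, 42.1, 44.85, 60.0 and 76.4 CPM in batch 1 and at 382, 549 and 174 CPM in batch 2. Slc26a7 had at least 1 count in all 8 BCAM HI libraries, at 0.551 to 6.01 CPM, and in 5 of the 8 BCAM LO libraries. Differentiated batch 2 lay above batch 1 throughout for both transporters.

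The peroxide-producing pair was less abundant. Duoxa2 (chromosome 2, 122298900 to 122302885, plus strand), which is needed for Duox2 to mature, ran from 19.0 to 34.7 CPM in differentiated batch 1 and stood at 79.1, 88.7 and 90.1 CPM in batch 2. In BCAM LO it had 0 counts in 6 of 8 libraries, including all 3 of batch 2, and elsewhere in the BCAM groups it reached at most 1.77 CPM. Duox2 (chromosome 2, 122279247 to 122298449, minus strand) had the lowest level of the 9, at 4.61, 2.48, 5.80, 8.33 and 7.10 CPM in differentiated libraries 1 to 5 and at 32.2, 39.7 and 6.58 CPM in libraries 6 to 8. Its groups overlapped, because BCAM LO library 8 had 4.54 CPM, above differentiated library 2, and it was the only 1 of the 9 left out of the test by the filter on low counts. Differentiated library 8, the highest of all for Duoxa2, was the lowest of batch 2 for Duox2.

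For the receptor and the transcription factor, the differentiated libraries again stood apart. Tshr (chromosome 12, 91384563 to 91549808, plus strand) stood at 12.7, 11.1, 9.50, 33.3 and 37.7 CPM in differentiated batch 1 and at 90.9, 136 and 70.4 CPM in batch 2. Across the 16 BCAM libraries it ran from 0 to 2.12 CPM, with 0 counts in 3 BCAM HI and 2 BCAM LO libraries. Pax8 (chromosome 2, 24420560 to 24475599, minus strand) stood at 138, 129, 114, 221 and 142 CPM in differentiated batch 1 and at 731, 690 and 461 CPM in batch 2. In BCAM HI it was highest in libraries 6 and 7, at 4.71 and 7.78 CPM, and in BCAM LO it was highest in library 7, at 6.00 CPM.

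The enzymes of iodine recovery and removal were Iyd and Dio1. Iyd (chromosome 10, 3540240 to 3554877, plus strand), the iodotyrosine deiodinase, stood at 166, 206, 172, 283 and 272 CPM in differentiated batch 1 and at 915, 1026 and 541 CPM in batch 2. It had 0 counts in 5 of 8 libraries of BCAM HI and 5 of 8 of BCAM LO, and it exceeded 1 CPM in BCAM HI library 7 (10.6 CPM) and BCAM LO libraries 6 and 7 (4.85 and 3.86 CPM). Dio1 (chromosome 4, 107291465 to 107307169, minus strand), a deiodinase also expressed in liver and kidney, stood at 80.1, 87.9, 52.8, 113 and 112 CPM in batch 1 and at 300.5, 384 and 232 CPM in batch 2. Dio1 in BCAM LO was highest in the 3 libraries of batch 2, at 5.29, 6.86 and 3.53 CPM, and Dio1 and Pax8 were the 2 of 9 genes with every BCAM LO library of batch 2 above batch 1, as in 9.89% of genes tested.

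The fit of all genes placed the 8 tested members far above zero in both contrasts with the differentiated group, given here as a description because the genes were chosen for these levels. Against BCAM HI the log2 fold changes of differentiated over BCAM HI were 9.50 for Tg, 8.56 for Iyd, 8.40 for Slc5a5, 7.85 for Dio1, 7.79 for Pax8, 6.22 for Duoxa2, 6.05 for Tshr and 6.01 for Slc26a7. Against BCAM LO they were 11.59 for Tg, 9.03 for Iyd, 8.35 for Slc5a5, 7.69 for Pax8, 7.54 for Slc26a7, 6.40 for Dio1, 6.22 for Duoxa2 and 5.64 for Tshr. All 8 of 8 tested members were called higher in each contrast, where 22% and 17.1% of the 12211 genes tested were called higher and 19.4% and 16.3% lower. The median log2 fold change was 7.82 and 7.61 for the members and -0.02 in each contrast for all genes. Both contrasts share the differentiated libraries. The fit takes the same batch step for all groups. Mean Tg, however, went from 12.5 CPM in batch 1 to 577 CPM in batch 2 in BCAM HI, and from 17836 to 79491 CPM in differentiated. Batch 2 alone gave 7.12 for Tg over BCAM HI and 9.23 over BCAM LO. With so few counts in the BCAM libraries the fitted sizes also depend on the pseudocount and on single libraries. On log2(TPM + 1) Tshr stood at 2.54 and 2.55 and Slc5a5 at 4.82 and 4.86, and Iyd over BCAM HI stood at 10.47 without BCAM HI library 7. In 8 of the 9 genes every differentiated library lay above every BCAM library, which held for 3% of genes tested.

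On the length-adjusted scale of the deposited TPM values, the mean levels in the differentiated libraries ran in the order Tg 9340, Iyd 256, Pax8 159, Dio1 86.1, Slc26a7 57.0, Slc5a5 54.4, Duoxa2 24.7, Tshr 10.2 and Duox2 1.72 TPM. The SD across the 8 libraries was 8209 TPM for Tg and 236 TPM for Iyd, just below their means, and it exceeded the mean for Slc26a7 (60.6 TPM) and Duox2 (1.97 TPM). Each gene lay above the next in all 8 libraries, except that Dio1 lay above Slc26a7 in 7, Slc26a7 above Slc5a5 in 6 and Slc5a5 above Duoxa2 in 7. Slc26a7 and Slc5a5, neighbours in that order, did not differ beyond their spread.

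The Tg counts were divided among 4 transcripts with at least 5% of the gene each. The full-length coding transcript Tg-201, of 8454 bases, took 56.3% of Tg counts over the differentiated libraries, with a range of 27.7% to 68.9% between libraries. The noncoding Tg-207 took 20.2%, the short coding Tg-203 took 16.1% and Tg-206 took 6.8%. Tg-201 took 61.5% of the Tg counts of the 5 BCAM libraries with the most Tg, within the range of the differentiated libraries. Iyd-201 took 92.2% of Iyd counts, Dio1-201 took 97.3% of Dio1 and Pax8-201 took 74.9% of Pax8, and Slc5a5 and Duoxa2 have a single transcript in the tables. Reads of 38 bases are divided among transcripts that share sequence, so these shares are estimates.

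Relative to Tg, the other genes varied less than their levels did. Iyd ran from 9.12 to 15.5 counts per 1000 Tg counts in the 8 differentiated libraries (median 11.6), a 1.7-fold range, while its CPM ranged 6.16-fold. Pax8 ran from 6.01 to 9.84 per 1000 Tg counts, a 1.64-fold range beside 6.41-fold in CPM, and Dio1 from 3.41 to 6.60, a 1.93-fold range beside 7.27-fold in CPM. Tshr and Slc26a7 had ranges of 2.17-fold and 2.1-fold beside 14.3-fold and 15.9-fold in CPM. The loosest were Slc5a5, from 2.10 in library 5 to 8.15 in library 4, and the pair Duox2 and Duoxa2, whose ratios ranged 3.19-fold and 3.3-fold. The range of Duox2 rests on 4 to 93 counts per library.

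In differentiated batch 2, Duox2 and Duoxa2 did not keep a fixed ratio to each other beyond counting error. Library 7 had 0.353 Duox2 (95% exact interval 0.285 to 0.432) and 0.789 Duoxa2 (0.686 to 0.904) per 1000 Tg counts. The intervals in library 8 were 0.0804 to 0.228 and 1.68 to 2.20. Duoxa2 was highest relative to Tg in libraries 2 and 8 (2.60 and 1.92 per 1000 Tg counts), which were the lowest libraries for Duox2 (0.186 and 0.141). The Duox2 value of library 2 rests on 4 counts (0.0507 to 0.476). With 4 to 15 Duox2 counts per batch 1 library, its ratios there, and its correlations below, are limited by counting error. Slc26a7 was the member whose ratio differed most between batches, at 2.93 ± 0.503 per 1000 Tg counts in batch 1 (SD, n = 5) and 4.47 ± 0.662 in batch 2 (SD, n = 3), with every batch 2 library above every batch 1 library. Pearson correlations of log2(CPM + 1) between pairs of members over the 8 differentiated libraries ran from 0.664 (Duox2 with Duoxa2) to 0.991 (Iyd with Slc26a7). Each of these includes the step between batches, and over the 5 libraries of batch 1 the pairs ran from -0.36 (Duox2 with Duoxa2) to 0.993 (Tg with Tshr), with Tg and Iyd at 0.909 and Tg and Duoxa2 at 0.188.

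**Figure D2:**
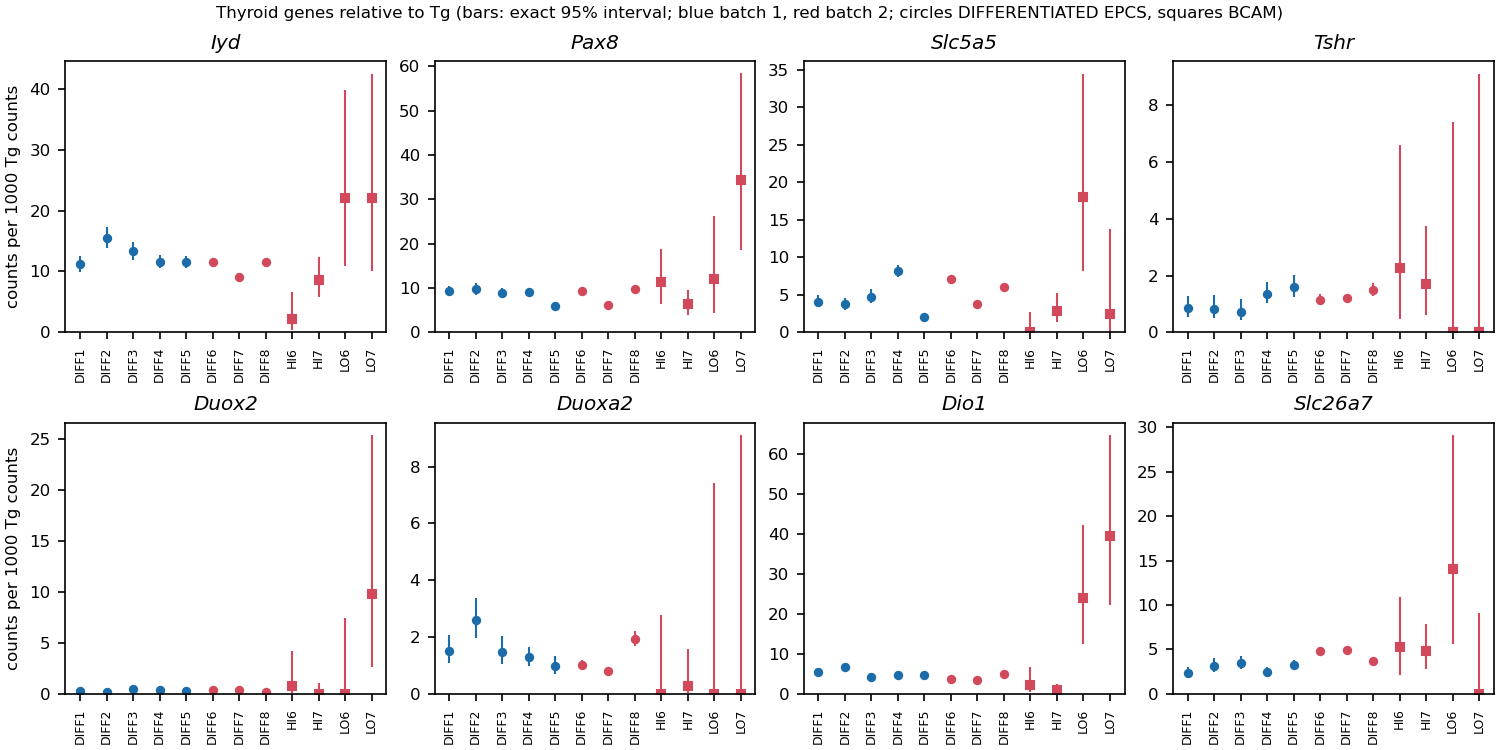
Counts of each gene per 1000 Tg counts in the 8 differentiated libraries (circles) and the 4 BCAM libraries with the most Tg counts (squares), with exact 95% binomial intervals that cover counting error only. Iyd stays between 9.12 and 15.5 in the differentiated libraries. The BCAM LO libraries reach 22.1 for Iyd and 39.3 for Dio1 with wide intervals, which for Iyd overlap the differentiated range.

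The differentiated libraries of the 2 batches were compared directly. Because the genes were chosen with their levels in both batches known, the calls and p-values here are a description. Of the 8 tested members, 7 were higher in batch 2 by edgeR's quasi-likelihood test, where 9.98% of genes tested were called higher and 10.2% lower. The log2 difference, batch 2 minus batch 1, was 2.83 for Slc26a7 (SE 0.42, adjusted p = 7.1e-05), 2.07 for Pax8 (SE 0.33, adjusted p = 1.36e-04), 2.33 for Slc5a5, 2.24 for Tshr, 1.91 for Iyd (SE 0.44, adjusted p = 0.00399), 1.78 for Dio1 and 1.73 for Duoxa2. Tg had a difference of 2.16 (SE 0.88) and missed the threshold in the same edgeR test, with an adjusted p of 0.0937.

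In 8 of the 9 genes, Tg included and Duox2 the exception, all 3 batch 2 libraries lay above all 5 of batch 1, as did 10.9% of genes tested. With limma on log2(TPM + 0.1), 1 of the 8 members, Slc5a5, was called (adjusted p = 0.0233), and the others had differences of 1.99 to 2.51 on that scale. Summed over their lists, airway secretory and basal markers were lower in batch 2, but their members differed. The summed basal markers (Krt5, Krt14, Trp63, Ngfr and Krt15) stood at 1917 to 2422 CPM in differentiated batch 1 and 238 to 927 CPM in batch 2, and the secretory values are given above. Krt15 made up most of the basal sum, at 1902 to 2413 CPM in batch 1 and 211 to 914 CPM in batch 2. Trp63, the transcription factor of basal cells, was called higher in batch 2 (log2 difference 2.98, edgeR adjusted p = 2.1e-05), at 0.619 to 3.46 CPM in batch 1 and 7.82 to 27.3 CPM in batch 2, and Krt5 had a difference of 0.01 and was not called. Among the secretory markers Scgb1a1, Scgb3a2 and Cyp2f2 were called lower, and Scgb3a1 (-0.71) and Bpifb1 (-1.59) were not called. The part of these markers, and of the batch, in the higher thyroid levels was not tested.

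Between BCAM HI and BCAM LO none of the 8 tested members was called by edgeR's quasi-likelihood test, which called 7.02% of genes tested. Members other than Tg had at most 30 counts in any BCAM library, and Iyd had 0 in 5 of 8 libraries of each group. For them the lack of a call says little. Only Tg had an unadjusted p under 0.05, so 1 of 8 reached that level, and limma on log2(TPM + 0.1) called 0 of 8, with 2 under 0.05 unadjusted. Tg was higher in BCAM HI by 2.08 on the log2 scale (SE 0.78, edgeR adjusted p = 0.1175), with 2.19 in batch 1 alone and 2.12 in batch 2 alone. The DESeq2 Wald test called it (2.14, adjusted p = 0.0352). Without BCAM HI libraries 6 and 7 and BCAM LO libraries 6 and 7, edgeR gave 2.53 (adjusted p = 0.0384). Those are the BCAM libraries with the most Tg counts, left out after the data were seen. That p is therefore no independent test of Tg. Dio1 was lower in BCAM HI by a log2 difference of -1.45 (SE 0.72, edgeR adjusted p = 0.2547), and batch 2 alone called it at -2.95 (adjusted p = 0.0106) while batch 1 alone gave 0.13. For the other 6 the fitted differences lay between -0.42 for Tshr and 1.53 for Slc26a7.

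In the BCAM libraries with most Tg, the other members could be set against it. BCAM HI library 7 had 3496 Tg counts, with 8.58 Iyd counts (95% exact interval 5.78 to 12.3), 6.29 Pax8 counts (3.94 to 9.54) and 2.86 Slc5a5 counts (1.37 to 5.27) per 1000 Tg counts. The range of the differentiated libraries overlapped all 3 intervals. Dio1 in that library was at 0.858 (0.177 to 2.51), below the lowest differentiated library at 3.41. BCAM HI library 6, with 1327 Tg counts, differed from it in Iyd, at 2.26 (0.466 to 6.62) per 1000 Tg counts, an interval below the lowest differentiated library at 9.12. Slc5a5 had 0 counts there, which allows up to 2.78, and Pax8 stood at 11.3 (6.31 to 18.7), overlapping the differentiated range.

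BCAM LO libraries 6 and 7 had 500 and 407 Tg counts, and some but not all ratios to Tg lay above the differentiated range. Dio1 stood at 24 (12.3 to 42.3) and 39.3 (22.3 to 64.6) per 1000 Tg counts, above the differentiated maximum of 6.60 in both. BCAM LO libraries 2 and 8 had 11 and 7 Dio1 counts with 5 and 6 Tg counts. Dio1 thus also occurred in BCAM LO with almost no Tg. Pax8 stood at 34.4 (18.6 to 58.4) in library 7, above the differentiated maximum of 9.84. In library 6 it stood at 12 (4.38 to 26.3), overlapping the differentiated range. Slc5a5 stood at 18.0 (8.18 to 34.4) in library 6, above the differentiated maximum of 8.15. In library 7 it stood at 2.46 (0.0621 to 13.8), overlapping the differentiated range. Both Iyd intervals (10.9 to 39.7 and 10 to 42.4) also overlapped it. Slc26a7 in library 6 (14, 5.6 to 29.1) and Duox2 in library 7 (9.83, 2.67 to 25.4) lay above their differentiated maxima, 4.89 and 0.449. In the other library each had 0 counts. Tshr and Duoxa2 had 0 counts in both libraries. At this depth that allows up to 7.41 per 1000 Tg counts in library 6 and 9.10 in library 7. Both limits lie above the differentiated maxima of 1.59 for Tshr and 2.60 for Duoxa2. These 0 counts therefore cannot be told apart from the differentiated ratios.

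By their file names, the 3 libraries with the same number share 1 of their 2 index sequences in all 8 numbers. Tg in a BCAM library ran from 0.00561% to 1.1% of that in the differentiated library of the same number, with the highest share in BCAM HI library 7. The parathyroid gene Pth, which encodes parathyroid hormone, gave 0.41% in BCAM HI library 1 and at most 0.0305% in the other BCAM libraries that could be compared. BCAM LO library 7 had 264 CPM of Pth while differentiated library 7 had 0 counts of it. The part of shared indexes in the BCAM values was not tested.

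Of 26 other genes of thyroid function, listed by role, 20 passed the filter and 9 were called higher and 4 lower in differentiated than in BCAM HI, with 11 higher and 3 lower than in BCAM LO. Over all genes tested, 22% were called higher and 19.4% lower than in BCAM HI, and 17.1% and 16.3% than in BCAM LO, so the lower calls were near these shares. The calls of Foxe1, Hhex, Slc5a8 and Lrp2 were kept in both contrasts under all alternatives run other than leaving out 1 library, which was so for 4 of the 13 calls over BCAM HI and 4 of the 14 over BCAM LO. The median log2 fold change of the 20 genes was 0.46 and 0.51. Among transcription factors, Foxe1 was higher by 4.75 (SE 0.61) and 4.22 (SE 0.59) and Hhex by 4.39 (SE 0.54) and 4.11 (SE 0.56), and every differentiated library lay above every BCAM library for both.

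Nkx2-1, which is also a factor of lung and airway epithelium, was not called in either contrast (0.45 and -0.10). It ranged over 8.04 to 49.1 CPM in differentiated, 10.97 to 22.3 in BCAM HI and 15.4 to 43.5 in BCAM LO. The direction of Nkx2-1 depended on the batch, at -0.42 over BCAM HI in batch 1 alone and 1.45 in batch 2 alone. Glis3, a thyroid transcription factor, had 0.37 over BCAM HI, not called, and 0.62 over BCAM LO, a call that was lost in 13 of 24 fits that left out 1 library (down to 0.52).

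The other dual oxidase pair went the opposite way to Duox2 and Duoxa2. Duox1, the dual oxidase of the airway as well as the thyroid, stood at 0 to 6.78 CPM in differentiated, 7.62 to 20.9 in BCAM HI and 0.441 to 17.9 in BCAM LO, and was lower in differentiated by log2 -2.96 (SE 0.63) and -2.52 (SE 0.65). Duox1 and Duox2 are paralogs, and the deposited counts are estimates, so how reads of shared sequence were divided between them is uncertain. The maturation factor Duoxa1 was lower by -1.95 (SE 0.49) and -1.56 (SE 0.49). In batch 2 alone neither was called against BCAM HI (-1.98 and -0.22) or BCAM LO (-0.66 for Duox1, and 0.32, a change of sign, for Duoxa1).

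Transporters and uptake proteins were mixed. Lrp2 (megalin), an endocytic receptor that binds thyroglobulin, was higher by 3.34 and 3.81. Slc5a8, a monocarboxylate transporter, was higher by 2.96 and 1.90. Kcnq1, a potassium channel, was higher by 2.97 and 1.48, but over BCAM HI it was not called in batch 2 alone (0.70), and over BCAM LO its value was -0.88 in batch 2 alone and the call was lost without BCAM LO library 1, 4 or 5. Slc26a4 (pendrin), an apical anion exchanger of the follicle, did not pass the filter and was low in all differentiated libraries but library 6, at 104 CPM. BCAM HI library 6 had 16.3 CPM of it, the highest among the BCAM libraries.

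Signalling and lysosomal genes differed less than Lrp2 or Foxe1. Gnas, the stimulatory G protein, was higher by 1.33 and 1.18, calls that batch 2 alone did not make (0.87 and 0.84), and Pde4d, a phosphodiesterase, by 0.72 and 0.66. The lysosomal proteases Ctsb (0.51 and 0.60) and Ctsd (0.47 and 0.42) were higher, and Ctsl was lower than in BCAM HI (-0.62). Thrb, a thyroid hormone receptor, was lower than in BCAM HI (-0.87), a call lost without BCAM HI library 1 or without differentiated library 6, 7 or 8. On log2(TPM + 0.1), where the median of all genes moved by -0.73 over BCAM HI and -0.46 over BCAM LO, Pde4d and Ctsb changed sign over BCAM HI and Ctsd in both contrasts. Adcy9, an adenylyl cyclase, was called over BCAM LO (0.75), a call lost in 13 of 24 fits that left out 1 library (0.53 without differentiated library 7), and Dio2, the other activating deiodinase, was not tested and had counts in 3 of the 24 libraries.

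**Figure D3:**
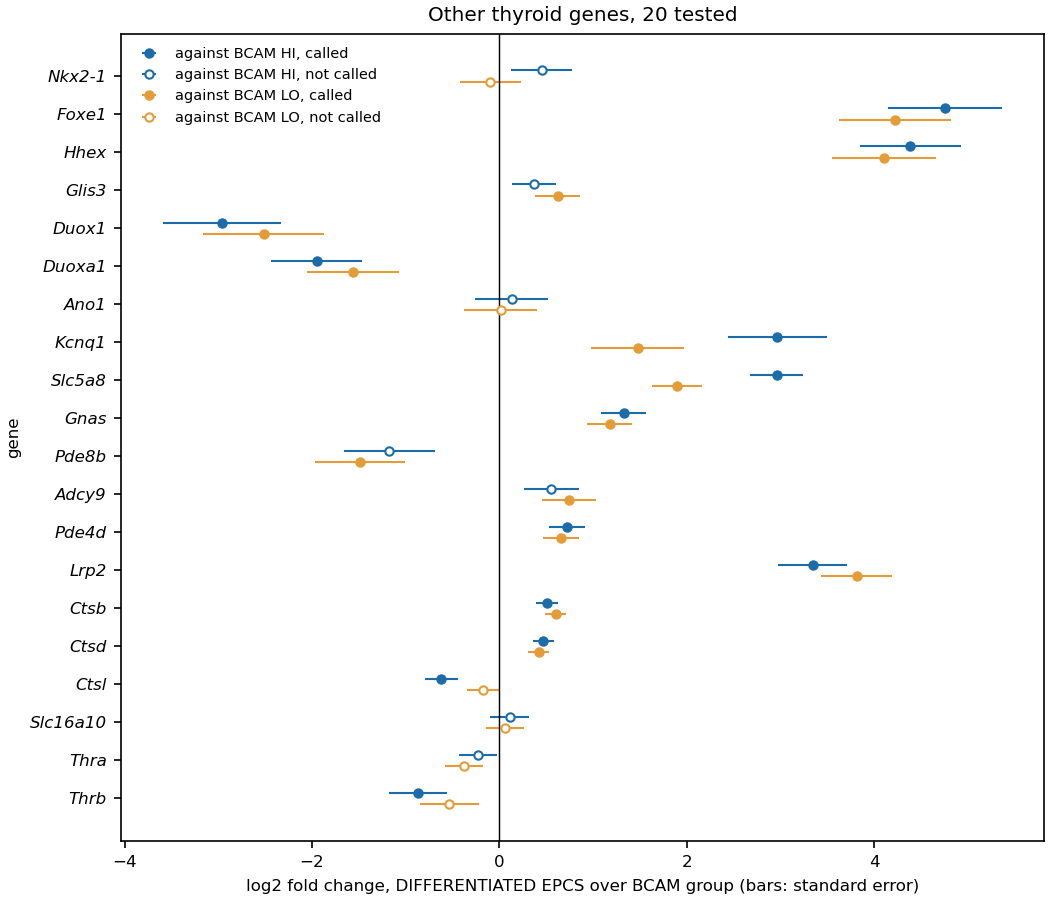
Log2 fold change of differentiated over each BCAM group for the 20 other thyroid genes that passed the filter, with standard errors, filled points being called at an adjusted p under 0.05. Foxe1 and Hhex lie between 4.11 and 4.75, whereas Duox1 and Duoxa1 lie between -2.96 and -1.56.

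Between the differentiated batches, 10 of these 20 genes were called higher in batch 2 and 1 lower, beside 9.98% and 10.2% of all genes tested, and 7 of the 11 calls held with each library left out in turn. Hhex was higher by 2.67 on the log2 scale (SE 0.41), Duoxa1 by 2.10 (SE 0.42) and Nkx2-1 by 1.57 (SE 0.30). The call of Foxe1 (1.84) was lost when differentiated library 7, among others, was left out (1.65).

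The genes most like Tg over the 8 differentiated libraries, among 9352 genes with a mean of at least 10 CPM there, were Slco2a1, Gpr160, Kcnh3, Col4a2, Kcnj16, Kank1, Cdh16, Ero1lb, Ccn4 and Papss2, with Pearson correlations of log2(CPM + 1) from 0.995 to 0.988. These libraries fall into 2 batches, and the step between batches is in every such value. Cdh16, the kidney-specific cadherin also made by thyroid follicular cells, had a mean of 164 CPM in batch 1 and 476 CPM in batch 2 and was at most 6.01 CPM in the BCAM libraries. Kcnj16 and Kcnh3, both potassium channels, were likewise low in the BCAM libraries, at up to 6.56 and 10.6 CPM. Slco2a1, the prostaglandin transporter, and Kank1 were as high in the BCAM libraries (60.4 to 131 and 28.2 to 58.5 CPM) as in differentiated batch 1.

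For Iyd, the second most abundant member, the most similar genes reported here were Prlr, Tmem116, Kcnh3, Ero1lb, Slc41a2, Capn6, Ager, Bcam and Ssr1, with correlations from 0.997 to 0.985. Prlr, the prolactin receptor, had a mean of 108 CPM in differentiated batch 1 and 647 CPM in batch 2, and at most 6.01 CPM in the BCAM libraries. Bcam itself, the gene of the protein used in the sort, ran with Iyd within the differentiated libraries, at 109 to 907 CPM, and stood at 224 to 739 CPM in the BCAM libraries.

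Around Tg, neighbouring genes were examined after their values were seen. Sla (chromosome 15, 66780819 to 66831829, minus strand), which lies inside the Tg span on the opposite strand, had a correlation of 0.981 with Tg over the differentiated libraries, at 94.4 to 1127 CPM there and at most 10.3 CPM in the BCAM libraries. The labels do not say that strand was kept, so reads of Sla and reads from Tg in that interval cannot be told apart. Ccn4, the next gene downstream, ran from 11.6 to 226 CPM and is on the list above. Phf20l1 and Ndrg1, the next genes on either side, stood at 26.4 to 80.8 and 51.0 to 229 CPM in the BCAM libraries and at 21.7 to 64.4 and 14.3 to 76.8 CPM in differentiated.

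**Figure D4:**
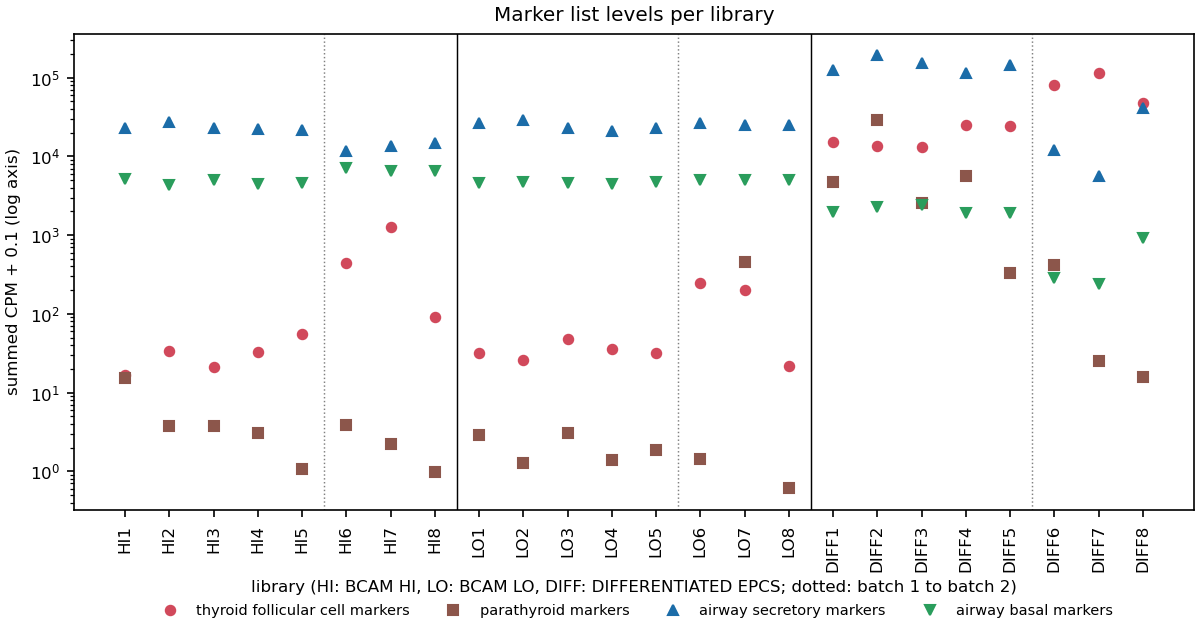
Summed CPM of 4 marker lists in each library, on a logarithmic axis, with solid lines between groups and dotted lines between batches. The thyroid follicular cell markers lie at 13320 to 114800 CPM in the differentiated libraries, where the secretory markers lie at 114600 CPM or more in batch 1 and at 41780 CPM or less in batch 2.

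Markers of other cell types were set beside the thyroid genes. The 7 follicular cell markers (Tg, Slc5a5, Tshr, Pax8, Iyd, Foxe1 and Nkx2-1) summed to more than the 5 secretory markers in all 3 differentiated libraries of batch 2 and to less in all 5 of batch 1. Tg made up most of the follicular sum, at 79239 of 81618, 112408 of 114780 and 46826 of 48230 CPM in differentiated libraries 6 to 8. The 4 parathyroid markers (Pth, Gcm2, Casr and Chga) did not follow the follicular markers. They summed to 332 to 29220 CPM in differentiated batch 1 and to 15.6 to 416 CPM in batch 2, where the follicular markers were highest. C cell markers (Calca, Calcb, Ret and Scg2) summed to 33.4 to 278 CPM in batch 1 and 22.2 to 93.9 CPM in batch 2. Immune markers were low in the differentiated libraries, at 0.412 to 13.3 CPM. Fibroblast markers varied there, at 178, 115 and 111 CPM in libraries 1, 5 and 6 and at 0.412 to 33.9 CPM in the others. Other lists were higher in differentiated batch 2 with no overlap, namely ciliated cell markers (60.7 to 105 CPM in batch 1 and 126 to 349 CPM in batch 2), chondrocyte markers (30.5 to 67.8 and 107 to 162 CPM) and muscle markers (1.24 to 4.91 and 11.5 to 15.3 CPM). None of these lists was tested for a part in the thyroid levels.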

How the data were processed

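The authors deposited 1 transcript table per library, and all 24 were used. Per the file headers each holds an estimated count and a TPM value per transcript, the layout kallisto writes. The estimated counts were deposited by the authors without normalization, and the TPM values were scaled by the authors to transcript length and to a fixed sum. The submitters' processing notes name kallisto 46.1, Picard and build GRCm39, with no role for each. Identifiers without version were matched to GENCODE M21 of GRCm38, so coordinates are those of M21. Of 117497 transcripts, 116374 matched, and the 1123 others, with 0.317% to 0.594% of counts, were left out. Counts were summed per gene and rounded.

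The main test was edgeR 4.0.16 (quasi-likelihood, robust, TMM, R 4.3.3) on the 12211 genes kept by filterByExpr, with a mean per group and batch as a covariate, or a mean per group and batch for the comparison of batches. Genes were called at a Benjamini-Hochberg adjusted p under 0.05 over all genes tested. Alternatives used DESeq2 1.42.0, limma 3.58.1 on log2(TPM + 0.1) and log2(TPM + 1), other filters, covariates and batches, and each library left out. The fit was tested on simulated data. The genes, the lists and the tests were chosen with earlier results of these data known. Genes named are the 9, listed thyroid genes by role (7 of them always, others if called and reaching a group mean of 10 CPM), the 10 most correlated with Tg and with Iyd, and transcripts with at least 5% of a gene. Some genes that this rule or the marker lists held are not reported here and were left out of the counts and sums of those lists. Pairs of libraries of a group differed by at least 6.98 chi-square units per degree of freedom, so none counted as a duplicate. Same-numbered BCAM HI and BCAM LO libraries deviated together from their group means in all 8 pairs (correlation 0.13 to 0.307, a pairing from the data and not from the labels). Those deviations include the batch, and from means per group and batch the correlation was 0.0351 to 0.185. The numbers were taken to pair these 2 groups in an alternative edgeR fit only, which called 0 of the 8 tested members, with 2 under 0.05 unadjusted. Printed differences, SEs and p-values between BCAM HI and BCAM LO are from fits without pairs. Intervals cover counting error only, since amplified reads carry no molecular identifiers.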

Additional observations from a re-analysis of the deposited data

Results flagged for a closer look

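In 8 of 27 gene and group combinations, the highest library stood apart from the other 7 by more than Dixon's 95% limit for 8 samples. By chance that limit is passed in about 1 in 20 groups only if values are independent and normally distributed. These CPM values are skewed, many rest on few counts, and each group mixes 2 batches. The genes also share their libraries. The 8 of 27 therefore cannot be compared with that rate, and the limit served as a flag only. In BCAM HI, library 7 stood apart for Tg (1237 CPM, the next library at 416), Iyd (10.61 CPM, next 0.941) and Slc5a5 (3.537 CPM, next 0.588), and library 5 for Duox2 (1.679 CPM, next 0.788). In BCAM LO, library 6 stood apart for Slc5a5 (3.97 CPM, next 0.505) and Slc26a7 (3.088 CPM, next 1.01), library 7 for Pax8 (6.001 CPM, next 2.65) and library 8 for Duox2 (4.539 CPM, next 1.72). Of these, 7 are in batch 2 and 1 in batch 1. No differentiated library stood apart by this limit.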

How the results depend on the processing

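With DESeq2 size factors or unscaled library totals, mean levels of the 9 genes in the differentiated libraries moved by less than 1 SD, an SD that spans both batches. Leaving out 1 of 8 libraries cannot move a mean by 1 SD, so it is no check of this kind. The mean of Tg then ran from 30750 to 44960 CPM. The 8 tested genes kept their direction and call in both contrasts with BCAM cells under all alternatives that tested them, though not their size. Over BCAM HI and BCAM LO, log2(TPM + 1) gave Iyd 6.81 and 6.85, Pax8 5.98 and 5.79, Duoxa2 3.89 and 4.02, Dio1 5.36 and 4.96, and Slc26a7 4.28 and 4.88, and batch 2 alone gave Tg 7.12 and 9.23 and Duoxa2 9.10 and 10.75. Log2(TPM + 0.1) and log2(TPM + 1) moved the count of genes called between differentiated and BCAM HI from 5044 (53.2% higher) to 7709 (11.5% higher) and 7741 (11.7% higher). On log2(TPM + 0.1), the share higher over BCAM LO went from 51.2% to 12.6%, that of BCAM HI over BCAM LO from 34.7% to 75.9% and that of batch 2 over batch 1 from 49.6% to 70.3%, while 1 in place of 7 members was called between batches. Batch 2 alone gave 2221 calls over BCAM LO in place of 4086. For BCAM HI against BCAM LO, 857 calls became 545 with no batch term, 543 in batch 2 alone and 459 without BCAM HI libraries 6 and 7 and BCAM LO libraries 6 and 7, an alternative chosen after seeing the data. With 1 library left out, calls between the differentiated batches ran from 1506 (without library 7) to 2806. The cause of these shifts was not tested.

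Differences between BCAM HI and BCAM LO changed sign for members that were not called. Pax8 became 0.18 with no batch term and 0.29 in batch 2 alone. Slc5a5 became 0.21 with the DESeq2 Wald test, 0.10 and 0.046 on the TPM scales with pseudocounts 0.1 and 1, 0.12 with no batch term, 0.73 in batch 1 alone and 0.44 without the 4 libraries. Tshr became 0.016 and 0.012 on the TPM scales and 1.66 in batch 2 alone, Duoxa2 became -0.029 without the 4 libraries, and Dio1 became 0.13 in batch 1 alone. With 1 library left out, Iyd ran from -1.50 to 1.12, Pax8 from -0.74 to 0.21, Slc5a5 from -1.08 to 1.08, Tshr from -0.86 to 0.076 and Duoxa2 from -0.71 to 0.74. Counts of 0 to 30 per BCAM library limit these values.

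Of the other thyroid genes, the TPM scales (pseudocounts 0.1 and 1) reversed Nkx2-1 (-0.48 and -0.39), Glis3 (-0.27 and -0.22), Adcy9 (-0.18 and -0.077), Pde4d (-0.066 and -0.055), Ctsb (-0.24 and -0.24) and Ctsd (-0.31 and -0.31) over BCAM HI, and Ctsd (-0.14 and -0.14) over BCAM LO. Batch 1 alone reversed Nkx2-1 over BCAM HI (-0.42) and Thrb over BCAM LO (0.15). Batch 2 alone reversed Ctsl over BCAM HI (0.22) and BCAM LO (0.47), Nkx2-1 (1.37), Duoxa1 (0.32) and Kcnq1 (-0.88) over BCAM LO. With 1 library left out, Nkx2-1 over BCAM LO ran from -0.27 to 0.064.

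Same-numbered libraries are not stated to share an animal. Between BCAM and differentiated libraries, the correlation of their deviations from group means was over 0.1 in 11 of 16 pairs, so the numbers were not taken to pair these, and 11 of 16 correlated best with their own number. The replicate block moved the calls to 5129 over BCAM HI, 4136 over BCAM LO and 864 between the BCAM groups, changed no call of the 8 members, and lost Kcnq1 and Adcy9 over BCAM LO.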
